A study of Mus musculus with 30 samples.

Results

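Lumbar dorsal root ganglia of mice given CVAD were compared with those of mice given doxorubicin alone, both on day 8. CVAD is the combination of cyclophosphamide, vincristine, doxorubicin and dexamethasone, so both groups received doxorubicin and the contrast differs by the other 3 drugs. The libraries were chosen by their treatment labels: 3 labelled CVAD on day 8 and 3 labelled doxorubicin on day 8, 6 of the 30 libraries of the series. The series, titled as a study of how single chemotherapeutics shape neuropathy and neuroinflammation under CVAD, holds 10 groups of 3 libraries from days 2 and 8, and doxorubicin alone is present on day 8 only. All mice were wild type C57BL/6J males, and the reference groups used here are saline, cyclophosphamide, vincristine and dexamethasone on day 8. Saline on day 2 is given only where it is named. Ganglia L3 to L5, left and right, were taken after perfusion with RNAlater, and total RNA depleted of ribosomal RNA was sequenced in strand-specific libraries. Doses, schedules and ages are not given in the sources used here. The labels do not say whether a library is 1 mouse or a pool, so the p-values measure the spread between libraries. Replicate numbers were assigned in accession order and pair nothing.

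The dorsal root ganglion holds the cell bodies of sensory neurons with their satellite glia, Schwann cells, resident macrophages and vessels, and it lies inside the vertebral column next to bone marrow and spinal cord. Doxorubicin poisons type II topoisomerases, cyclophosphamide is an alkylating agent, vincristine binds tubulin and blocks microtubule growth, and dexamethasone activates the glucocorticoid receptor. The first 3 are toxic to dividing marrow cells, and vincristine is known for a peripheral neuropathy. Neuronal and glial markers were abundant in every library of the comparison. The nociceptor list of 20 genes summed to 2052 to 2441 TPM (transcripts scaled to 1e+06 per library) with CVAD and 1926 to 2328 with doxorubicin, and the satellite glia list to 1511 to 1877 and 1593 to 1735. The mitochondrial genome's 37 genes, and genes that every cell uses such as Rps2 and Kif3a, are listed at 0 in every library, so a 0 in the table can be a failed estimate. Values at 0 are therefore given library by library.

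No gene passed the test. Of 25434 genes tested, limma called 0 higher and 0 lower (0%) at an adjusted p under 0.05, and the smallest adjusted p was 0.123. An unadjusted p under 0.05 was found for 1220 genes (4.8%), 809 of them higher with CVAD (3.18%) and 411 lower (1.62%). The groups did not overlap, with CVAD above, for 1484 genes (5.83%) and, with CVAD below, for 818 (3.22%), and an exact permutation test of 3 against 3 libraries cannot go below 0.1. The split between directions depended on the scaling and on single libraries. It was 661 higher and 746 lower after median-ratio scaling, which moved the median difference of all genes from 0.04 to −0.00 on the log2 scale. It was 1431 and 296 without doxorubicin replicate 1, 464 and 510 without doxorubicin replicate 3, and 526 and 455 without CVAD replicate 1. Other settings of the limma test called at most 2 genes in a direction. Most of these were noncoding RNAs or predicted models, and the coding gene with a known symbol among them was Olfr1033. A p that misses the threshold does not show that the groups were alike, so the genes below are described by their values, with the standard error (SE) or 95% interval of the log2(TPM + 1) difference.

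**Figure D1:**
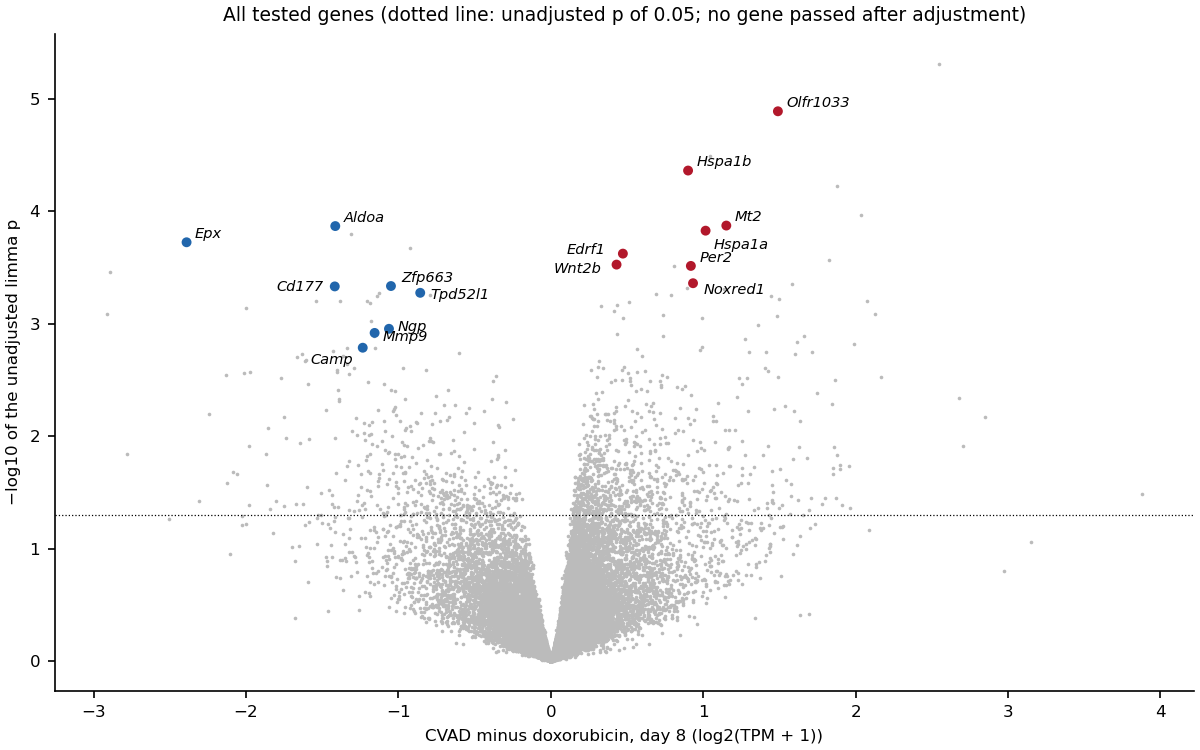
Each point is 1 of 25434 genes, with the log2(TPM + 1) difference CVAD minus doxorubicin on the x axis and −log10 of the unadjusted limma p on the y axis. The dotted line marks an unadjusted p of 0.05, the labelled genes are the 16 leading coding genes, and none of the points passed the adjusted threshold.

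Genes of neutrophil granules lay below the doxorubicin level with CVAD. Neutrophils make their granule proteins in the marrow in a fixed order, with primary granule proteases and myeloperoxidase first and secondary and tertiary granule proteins later. Of the 16 listed genes of secondary and late granules, 14 were tested and S100a8 and S100a9 are listed at 0 in every library. All 14 were lower with CVAD, where 39.4% of all tested genes were lower, and their median log2 difference was −1.04 against 0.04 over all genes. An unadjusted p under 0.05 was found for 11 of the 14 (1.62% of all genes), and the groups did not overlap for 10 of them (3.22% of all genes).

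Ngp, a granule protein of the cathelicidin family, was at 38.7, 40.4 and 23.8 TPM with CVAD, at 77.5, 51.1 and 89.9 with doxorubicin and at 87.1, 102 and 120 with saline. Each CVAD library was below each doxorubicin library, and all doxorubicin libraries but 1 were below the lowest saline library. The log2 difference between CVAD and doxorubicin was −1.06 ± 0.29 (SE, n = 3 per group, limma adjusted p = 0.553). Camp, the cathelicidin precursor, was at 8.80, 8.69 and 9.15 TPM with CVAD against 20.98, 14.1 and 36.9 with doxorubicin and 28.1, 40.3 and 45.6 with saline. The CVAD values of Camp lay within 1 TPM of each other, while the doxorubicin values spread widely below the saline range or inside it. Cd177, a surface protein of mature neutrophils, was at 4.06, 2.80 and 2.34 TPM against 9.97, 6.73 and 13.5, with 11.3, 11.5 and 20.4 in saline (log2 difference −1.42 ± 0.35, limma adjusted p = 0.439). Mmp9, a gelatinase of tertiary granules, was at 12.5, 9.39 and 5.15 TPM against 19.6, 15.4 and 27.3, with 21.5 to 23.6 in saline. For these genes the order of the groups was CVAD lowest and saline highest on average, and doxorubicin and saline overlapped for all 4. All 4 were named for a small p with CVAD below doxorubicin and no overlap, so that part of the order follows from the choice.

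Among the remaining late granule genes the pattern was less regular in places. Padi4, the enzyme that citrullinates histones in neutrophils, was at 2.18, 0.9997 and 1.39 TPM with CVAD against 6.25, 3.10 and 7.75 with doxorubicin. Ltf, lactoferrin, was at 23.6, 24.7 and 11.2 TPM against 45.1, 31.1 and 54.0. Lcn2, lipocalin 2, was at 22.9, 16.2 and 16.9 TPM against 46.2, 20.3 and 57.7, and its groups overlapped. Chil3, Fcnb and Ly6g had log2 differences of −0.60, −0.86 and −0.46 with overlapping groups. All 14 genes remained lower under each of the 15 alternative settings, and the list's median ran from −1.33 to −0.86 when 1 library was left out.

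The 7 genes of the primary granule list, which also holds Cebpe and Ms4a3, were all lower with CVAD (39.4% of all genes). Of the 7, 4 had an unadjusted p under 0.05 (1.62% of all genes) and 4 did not overlap (3.22%). The median log2 difference of the list was −0.94. Elane, neutrophil elastase, was at 3.50, 2.22 and 5.37 TPM with CVAD, 9.74, 4.56 and 9.92 with doxorubicin and 13.2, 19.2 and 27.1 with saline. Mpo, myeloperoxidase, was at 6.40, 6.91 and 5.12 TPM against 10.9, 7.92 and 15.97, with 15.2, 27.8 and 39.2 in saline. All doxorubicin values of Elane and all but 1 of Mpo were below the lowest saline value, and CVAD and doxorubicin overlapped for Elane but not for Mpo. Cebpe, the transcription factor that drives late granule genes, was at 1.39, 0 and 0 TPM against 4.10, 1.66 and 3.97. It had the lowest log2 difference of the list (−1.61), and its values at 0 can be failed estimates. Ms4a3, a membrane protein of granulocyte precursors, was nearly level, at 21.1, 18.1 and 14.4 TPM against 19.8, 20.2 and 16.6 (log2 difference −0.08, 95% interval −0.42 to 0.25). Without CVAD replicate 2, doxorubicin replicate 1 or doxorubicin replicate 3, the count of genes of this list with an unadjusted p under 0.05 was 1.

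To show the sequence context of these genes, the 250 bases before the start of Ngp are printed from RefSeq (GRCm38.p6, chr9:110419558-110419807, plus strand), with C/EBP motifs in capitals. The motif searched was TTGCNNAA on both strands, after the factor family that Cebpe belongs to. It was found in 7 of the 13 late granule genes with a promoter entry and in 0 of 6 genes of the primary granule list. The share over 32536 promoters of the same length was 9.57%. The 7 genes were Fcnb, Lcn2, Ltf, Ly6g, Mmp8, Ngp and Retnlg. A match describes these letters and is not a measured binding site.
Ngp: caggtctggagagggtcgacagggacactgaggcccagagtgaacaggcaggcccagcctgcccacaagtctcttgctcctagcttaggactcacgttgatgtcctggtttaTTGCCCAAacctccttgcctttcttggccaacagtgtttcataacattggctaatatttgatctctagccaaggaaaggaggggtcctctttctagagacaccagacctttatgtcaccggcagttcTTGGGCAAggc

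Eosinophil granule genes were lower as well. Of 8 listed genes 6 were tested and all 6 were lower with CVAD (39.4% of all genes), with a median log2 difference of −1.58. Of the 6, 3 had an unadjusted p under 0.05 (1.62% of all genes) and the same number did not overlap (3.22%). Epx, eosinophil peroxidase, was listed at 0 in all 3 CVAD libraries, at 5.27, 3.06 and 4.65 TPM with doxorubicin and at 6.75, 5.79 and 3.46 with saline. Prg2, the major basic protein, was at 10.99, 10.4 and 1.97 TPM with CVAD, 33.2, 20.3 and 32.9 with doxorubicin and 46.6, 37.5 and 20.6 with saline. Ear1, an eosinophil ribonuclease with near-identical copies among which reads could be split, was at 1.34, 1.34 and 0.782 TPM against 7.99, 5.56 and 9.91. Doxorubicin and saline overlapped for all 3 of these genes. The CVAD median of the list was −0.28 against cyclophosphamide alone, −1.95 against vincristine and −2.35 against dexamethasone. The list's median was −1.20 without CVAD replicate 3 and −1.94 at the other end of the range with 1 library left out.

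**Figure D2:**
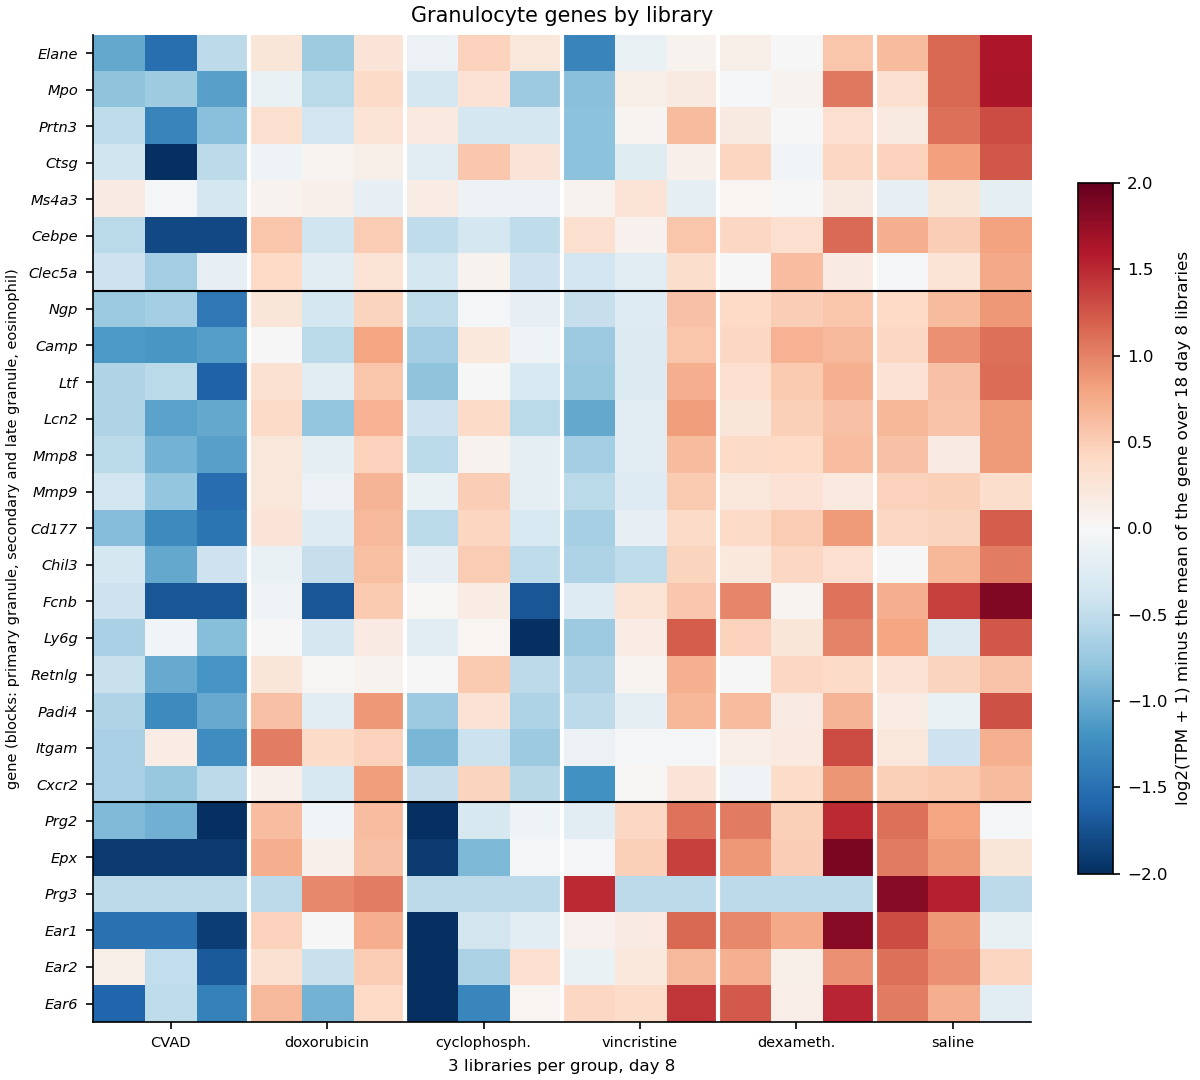
Heat map of 27 granulocyte genes (rows) in the 18 day 8 libraries (columns, grouped by treatment), coloured by log2(TPM + 1) minus the gene's mean over those libraries. The 3 CVAD columns are below the mean for most rows, for example Ngp at 23.8 to 40.4 TPM against 51.1 to 89.9 with doxorubicin.

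In bulk tissue, fewer cells of a type and less RNA per cell cannot be told apart. Lists for other tissues that could lie beside the ganglion were lower too in part, and their part in the result was not tested. The 13 tested genes of bone and cartilage had a median log2 difference of −0.47 with 12 of 13 lower (39.4% of all genes). They summed to 72.9 to 158 TPM with CVAD and 140 to 194 with doxorubicin. Without CVAD replicate 3, 8 of 13 were lower. Their osteoblast gene Bglap was at 23.8, 29.3 and 0 TPM with CVAD. The 13 erythroid genes had a median of −0.78 with 12 of 13 lower, and they summed to 55.6 to 127 TPM against 93.6 to 153. None had an unadjusted p under 0.05 and 4 did not overlap (3.22% of all genes). When the compared libraries alone were fitted, 4 had such a p, as did 464 of all 25434 genes in the same direction. Of 12 B cell genes 6 were higher and 6 lower, their median was 0.00, and 0 had an unadjusted p under 0.05. Against saline the B cell median was −0.74 with CVAD and −0.71 with doxorubicin, which share the saline libraries. The T and NK cell genes had a median of −0.17, with 6 of 8 lower and none with an unadjusted p under 0.05.

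Cell division genes and replication-dependent histones were also lower with CVAD. Of 32 cell division genes 29 were lower (39.4% of all genes), 3 of these with an unadjusted p under 0.05 (1.62%). The groups of 10 did not overlap with CVAD below (3.22% of all genes). The median log2 difference was −0.38. Against the other single drugs the CVAD median was −0.05 with cyclophosphamide, −0.40 with vincristine and −0.42 with dexamethasone. The cell division genes summed to 168 to 219 TPM with CVAD and 182 to 228 with cyclophosphamide alone. Mki67, a proliferation marker, was at 6.54, 6.51 and 1.78 TPM with CVAD, 8.86, 7.89 and 12.9 with doxorubicin and 19.1, 15.9 and 6.64 with saline (log2 difference −0.98, 95% interval −1.96 to −0.00). Ccnb1, the mitotic cyclin B1, was at 1.75, 1.46 and 0.967 TPM against 4.86, 2.21 and 4.86. CVAD replicate 3 was the lowest library for both genes, and without it, or without doxorubicin replicate 1 or 3, no lower member had an unadjusted p under 0.05. The number was also 0 with library quality weights, and it was 6 with the day 8 libraries alone. Kif23, a kinesin of cytokinesis, went the other way at 17.3, 15.1 and 17.1 TPM against 13.955, 11.6 and 10.9 (log2 difference 0.42 ± 0.14, limma adjusted p = 0.862).

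All 24 histone genes were lower (39.4% of all genes), with a median of −0.39. Of the 24, 8 had an unadjusted p under 0.05 (1.62% of all genes) and 12 did not overlap (3.22%). H1f1, a linker histone, was at 15.1, 14.4 and 4.11 TPM with CVAD, 23.6, 17.98 and 24.5 with doxorubicin and 43.5, 33.0 and 15.4 with saline. H4c3, a core histone, was nearer between groups, with a log2 difference of −0.30 ± 0.12. The 24 genes summed to 526 to 646 TPM with CVAD, 729 to 851 with doxorubicin and 758 to 1204 with saline, so the first 2 ranges did not meet. With cyclophosphamide alone they summed to 654 to 793 TPM. The CVAD median was −0.18 against cyclophosphamide, −0.56 against vincristine and −0.52 against dexamethasone. Histone copies are nearly identical and their reads could be split between copies. Without CVAD replicate 3 or doxorubicin replicate 3, none of the 24 had an unadjusted p under 0.05. The number was 4 without CVAD replicate 2 or with library quality weights, 5 without doxorubicin replicate 1, 12 with the day 8 libraries alone and 13 after median-ratio scaling.

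**Figure D3:**
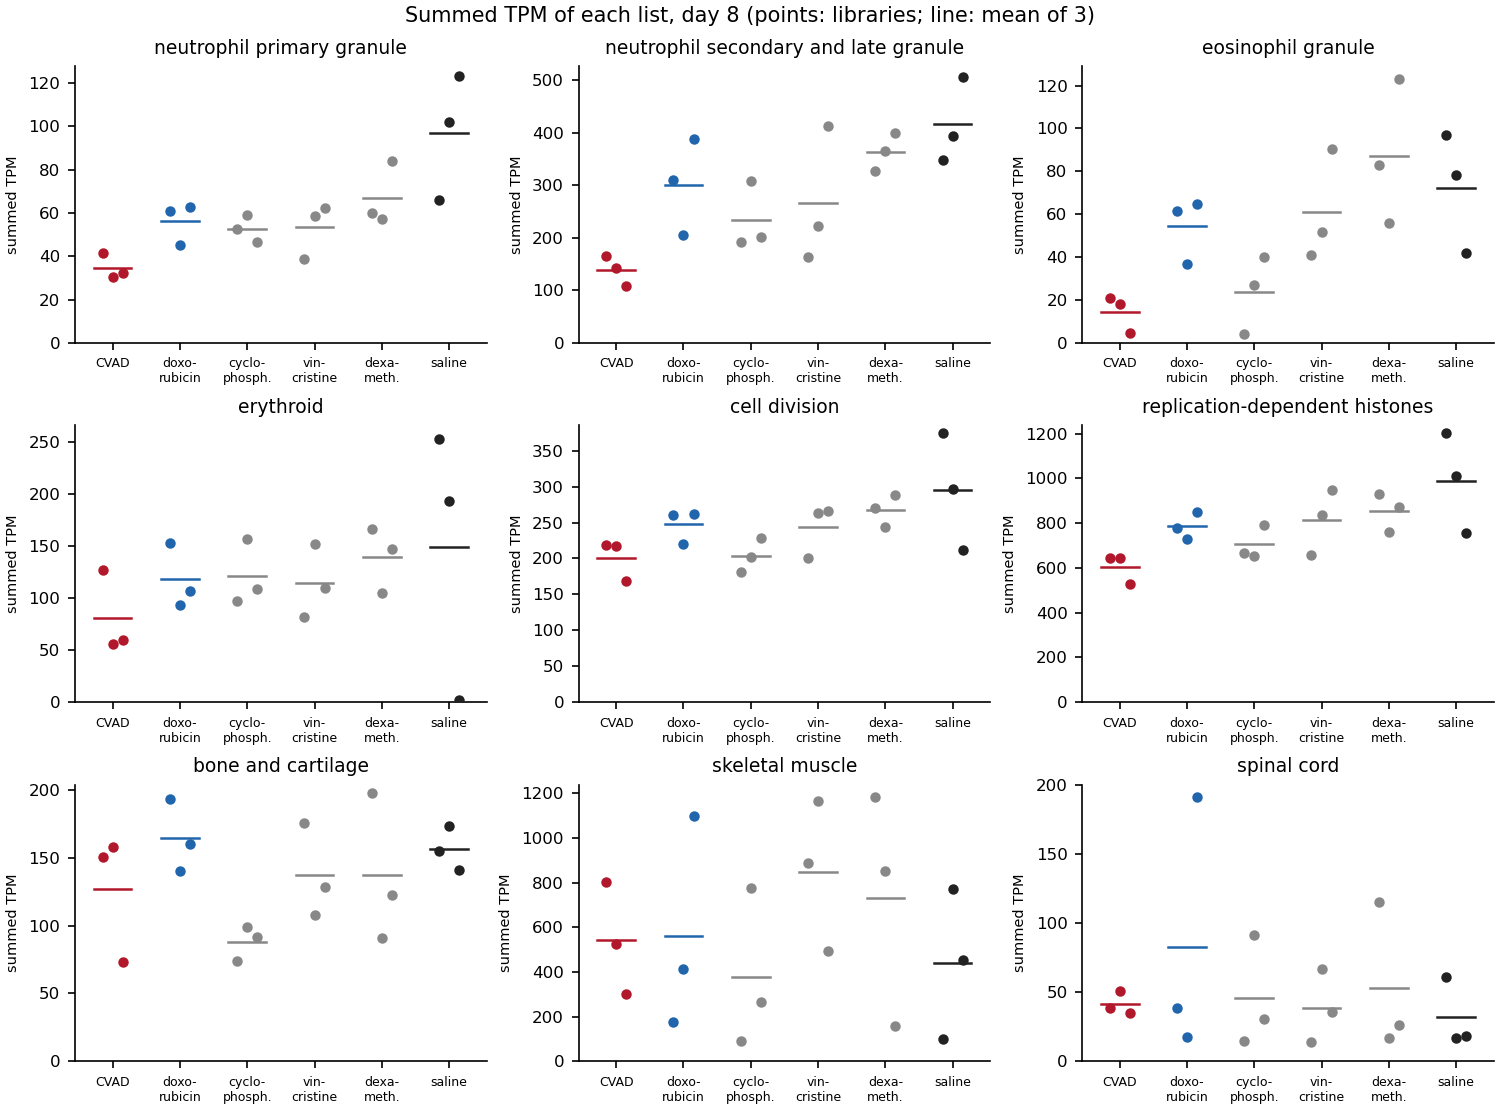
Summed TPM of 9 gene lists (y axis) in each of the 18 day 8 libraries (points) by treatment (x axis), with a line at the mean of 3. The CVAD and doxorubicin libraries do not overlap for late neutrophil granules (108 to 165 against 206 to 388 TPM) or histones (526 to 646 against 729 to 851).

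Of the targets of doxorubicin, which both groups had received, Top2b was nearly level and Top2a was lower on average with CVAD with a wide interval. Top2b, the topoisomerase II of nondividing cells, was at 44.4 ± 1.76 TPM (SD, n = 3) with CVAD and 43.7 ± 2.66 with doxorubicin, a log2 difference of 0.02 (95% interval −0.14 to 0.19) that turned to −0.02 after median-ratio scaling. Top2a, the isoform of dividing cells, was at 8.60, 6.39 and 1.78 TPM against 8.83, 5.88 and 14.2, a log2 difference of −0.79 (95% interval −1.99 to 0.40). Top1, the type I enzyme, was at 73.7, 66.8 and 67.4 TPM against 66.4, 61.9 and 58.7. The groups of Top1 did not overlap, though by less than 1 TPM. Cdkn1a, the p53-induced cell cycle inhibitor p21, was at 105 ± 13 TPM against 93.9 ± 8.37 (log2 difference 0.15, 95% interval −0.19 to 0.49). Of 24 tested p53 targets 20 were higher, where 59.6% of all tested genes were, and 1 had an unadjusted p under 0.05 (3.18% of all genes). It was Polk, a translesion DNA polymerase, with a log2 difference of 0.37 ± 0.16. After median-ratio scaling 17 of the 24 were higher, and without doxorubicin replicate 3 the number was 13. Of 24 genes of DNA repair and topoisomerases 13 were higher and 11 lower, with a median of 0.01, and 1 higher and 2 lower members had an unadjusted p under 0.05. Without doxorubicin replicate 3 the split was 7 higher and 17 lower. Fancd2, of DNA crosslink repair, had a log2 difference of −0.63 ± 0.29.

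Among stress genes, the inducible HSP70 pair was higher in every CVAD library than in any doxorubicin or saline library. Hspa1b was at 36.3, 37.1 and 46.5 TPM with CVAD, 19.9, 23.6 and 19.2 with doxorubicin and 19.1, 23.8 and 23.9 with saline. The means were 39.97 ± 5.64 TPM (SD, n = 3) with CVAD and 20.9 ± 2.39 with doxorubicin, and the doxorubicin and saline libraries overlapped. The log2 difference from doxorubicin was 0.90 ± 0.18 (SE, limma adjusted p = 0.275), and it ran from 0.78 to 0.99 over the alternatives, with adjusted p from 0.119 to 0.723. Hspa1a was at 36.4, 38.3 and 54.2 TPM against 19.1, 23.6 and 18.9, with 16.6, 21.996 and 23.7 in saline (log2 difference 1.02 ± 0.23, limma adjusted p = 0.403). In the other single-drug groups Hspa1b was at 29.2, 34.1 and 23.6 TPM with cyclophosphamide, 24.2, 25.9 and 24.6 with vincristine and 23.015, 32.4 and 26.4 with dexamethasone. All 9 of those values were below the lowest CVAD value, and most were above the highest doxorubicin value.

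These genes encode nearly the same protein and lie close together on chromosome 17 (Hspa1b at 35175412 to 35178214 and Hspa1a at 35188166 to 35191132 in the deposited table, which does not follow GRCm38), so the split of reads between them is uncertain. The 250 bases before each start, printed from RefSeq (GRCm38.p6, minus strand, chr17:34959239-34959488 for Hspa1b and chr17:34972157-34972406 for Hspa1a), differ at 3 of 250 positions. Capitals mark the heat shock element searched on both strands, GAANNTTC or TTCNNGAA, the site class of heat shock factor 1. It was found in 12.9% of 32536 promoters and in 7 of the 11 listed chaperone genes with a promoter entry (Dnaja1, Hspa1a, Hspa1b, Hspb1, Hspd1, Hspe1 and Hsph1).
Hspa1b: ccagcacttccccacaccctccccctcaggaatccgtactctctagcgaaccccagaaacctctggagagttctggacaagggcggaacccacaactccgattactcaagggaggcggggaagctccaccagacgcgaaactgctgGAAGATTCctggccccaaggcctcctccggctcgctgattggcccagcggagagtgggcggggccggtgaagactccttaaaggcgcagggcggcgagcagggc
Hspa1a: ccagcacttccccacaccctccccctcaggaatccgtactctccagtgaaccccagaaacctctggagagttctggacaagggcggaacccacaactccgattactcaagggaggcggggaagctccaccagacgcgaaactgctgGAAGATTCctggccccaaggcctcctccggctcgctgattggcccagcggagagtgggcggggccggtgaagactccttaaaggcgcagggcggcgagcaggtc

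The other chaperones differed little. All 16 chaperone genes were higher with CVAD (59.6% of all genes), 4 with an unadjusted p under 0.05 (3.18%) and 6 without overlap (5.83%). Their median log2 difference was 0.15. After median-ratio scaling 13 of 16 were higher, and without doxorubicin replicate 3 the number was 11 of 16. Without CVAD replicate 2 or doxorubicin replicate 3 the number with an unadjusted p under 0.05 was 2. Dnajb1, an HSP40 cochaperone, was at 47.4, 54.2 and 51.5 TPM against 43.5, 43.6 and 35.9. Hspa8, the constitutive HSP70, was at 511 ± 4.57 TPM against 497 ± 41.1 (log2 difference 0.04, 95% interval −0.16 to 0.25). In the list for the endoplasmic reticulum and integrated stress, 14 of 16 genes were higher (59.6% of all genes), with a median of 0.16. Of the 14, 4 had an unadjusted p under 0.05 (3.18% of all genes). Herpud1, of endoplasmic reticulum associated degradation, was at 90.7, 85.3 and 79.0 TPM against 75.3, 68.0 and 59.3 (log2 difference 0.33 ± 0.09, limma adjusted p = 0.439). Xbp1, a transcription factor of the unfolded protein response, was at 102, 113 and 112 TPM against 92.4, 83.7 and 79.2. Hspa5, the lumenal HSP70, was at 125, 148 and 136 TPM against 116, 117 and 114. The count with an unadjusted p under 0.05 in this list was 1 without CVAD replicate 2 or doxorubicin replicate 3 and 2 after median-ratio scaling.

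Metallothioneins, which bind zinc and copper and respond to metals and glucocorticoids, were higher with CVAD. Mt2 was at 90.4, 97.0 and 59.5 TPM with CVAD, 33.5, 36.0 and 37.8 with doxorubicin and 40.2, 29.7 and 46.5 with saline. Each CVAD library was above all doxorubicin and saline libraries, and the log2 difference from doxorubicin was 1.15 ± 0.25 (SE, limma adjusted p = 0.403). Mt1 was at 110, 98.5 and 89.0 TPM against 73.8, 70.7 and 74.6, a smaller log2 difference of 0.43 ± 0.12 (limma adjusted p = 0.579). Among the single-drug groups Mt2 was highest with vincristine, at 71.6, 67.8 and 52.9 TPM, and lowest with doxorubicin by its mean, and the vincristine and CVAD ranges overlapped.

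The promoters of the metallothionein pair are printed because metals and glucocorticoids are known to act on these genes (RefSeq, GRCm38.p6, plus strand, chr8:94172368-94172617 for Mt2 and chr8:94178839-94179088 for Mt1). Capitals mark the metal response element, searched on both strands as TGCACNC or TGCGCNC, with 3 matches for Mt2 and 1 for Mt1. These counts cover only the 250 bases before the annotated start, so sites elsewhere were not searched. The metal response element was found in 21.5% of 32536 promoters. The glucocorticoid response element, searched as the half-sites GNACA and TGTNC separated by 3 bases, had 1 match for Mt1 and 0 for Mt2, was found in 0.39% of promoters, and in the glucocorticoid list in 2 of 18 genes with a promoter entry (Mt1 and Sgk1).
Mt2: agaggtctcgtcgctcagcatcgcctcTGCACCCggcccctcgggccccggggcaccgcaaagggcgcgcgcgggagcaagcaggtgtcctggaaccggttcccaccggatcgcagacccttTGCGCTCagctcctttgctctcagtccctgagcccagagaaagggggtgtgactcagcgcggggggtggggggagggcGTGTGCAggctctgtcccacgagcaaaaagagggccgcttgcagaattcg
Mt1: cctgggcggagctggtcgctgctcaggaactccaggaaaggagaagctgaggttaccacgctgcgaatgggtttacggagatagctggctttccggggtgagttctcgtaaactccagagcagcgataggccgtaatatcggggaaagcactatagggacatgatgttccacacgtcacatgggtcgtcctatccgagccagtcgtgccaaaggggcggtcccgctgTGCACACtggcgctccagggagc

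Several further genes that glucocorticoids are known to induce were higher in CVAD replicates 1 and 2 and close to the doxorubicin level in CVAD replicate 3. Fkbp5, a cochaperone that restrains the glucocorticoid receptor, was at 100, 95.3 and 56.8 TPM with CVAD and at 50.2, 49.0 and 51.8 with doxorubicin (log2 difference 0.69 ± 0.26, limma adjusted p = 0.999). Zbtb16, a zinc finger transcription factor, was at 68.2, 61.1 and 15.1 TPM against 15.1, 15.9 and 16.02. Hif3a, a hypoxia-inducible factor subunit, was at 20.5, 16.2 and 2.52 TPM against 3.75, 2.37 and 2.96. Klf15, a metabolic transcription factor, was at 45.1, 39.4 and 21.6 TPM against 19.4, 16.3 and 16.7, and Sgk1, a kinase, at 77.4, 58.5 and 40.3 against 39.4, 33.8 and 34.5. In all 5 genes CVAD replicate 3 was the lowest of its group, and for Zbtb16 and Hif3a it lay at the edge of the doxorubicin range or inside it.

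Of the 24 glucocorticoid targets 23 were tested and 20 were higher (59.6% of all genes), with a median of 0.26. Of the 20, 8 had an unadjusted p under 0.05 (3.18% of all genes). Of the 3 lower genes Lcn2 had an unadjusted p under 0.05. The list summed to 1483, 1409 and 997 TPM with CVAD and 959 to 1061 with doxorubicin. In saline it summed to 982 to 1199 TPM on day 8 and 902 to 1440 on day 2. The highest saline value on day 2 thus lay between CVAD replicates 1 and 2. Without CVAD replicate 3 the number of higher genes with an unadjusted p under 0.05 was 12 and Fkbp5 had a log2 difference of 0.94, while without CVAD replicate 1, CVAD replicate 2 or doxorubicin replicate 3 the number was 4. It was 5 without doxorubicin replicate 2 or with the compared libraries alone, and 13 with library quality weights. Tsc22d3, the glucocorticoid-induced leucine zipper, was at 146, 152 and 103 TPM against 115, 110 and 103 (95% interval of the log2 difference −0.01 to 0.54). Nr3c1, the receptor itself, was at 55.7 TPM against 57.9 on average, with an interval of −0.29 to 0.19. With dexamethasone alone Fkbp5 was at 42.1, 58.6 and 57.2 TPM, near the doxorubicin values, and with vincristine alone at 84.3, 73.1 and 63.3.

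Of 16 tested circadian clock genes 14 were higher with CVAD (59.6% of all genes), and the median was 0.22. Of the 14, 5 had an unadjusted p under 0.05 (3.18% of all genes) and 6 did not overlap (5.83%). Per2, a repressor in the clock's feedback loop, was at 18.1, 20.6 and 16.97 TPM with CVAD, 9.71, 9.90 and 8.38 with doxorubicin and 10.02, 7.69 and 14.9 with saline (log2 difference from doxorubicin 0.92 ± 0.22, limma adjusted p = 0.439). Every CVAD value was above every doxorubicin and saline value. Per1, which glucocorticoids also induce, was at 65.6, 63.7 and 31.7 TPM against 35.2, 35.4 and 31.0, again with CVAD replicate 3 near doxorubicin. The nuclear receptors that repress Arntl were at 62.6, 55.9 and 60.8 TPM against 48.8, 46.5 and 39.1 (Nr1d2) and at 59.4, 40.04 and 64.4 against 36.4, 36.4 and 28.1 (Nr1d1). The activators Arntl and Npas2 had log2 differences of −0.21 and −0.19. After median-ratio scaling 12 of 16 were higher. Without CVAD replicate 1 the number higher was 11, and without doxorubicin replicate 3 the number with an unadjusted p under 0.05 was 2. The hour of tissue collection is not given in the sources used here, and saline libraries alone spanned 23.8 to 80.5 TPM for Nr1d1.

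**Figure D4:**
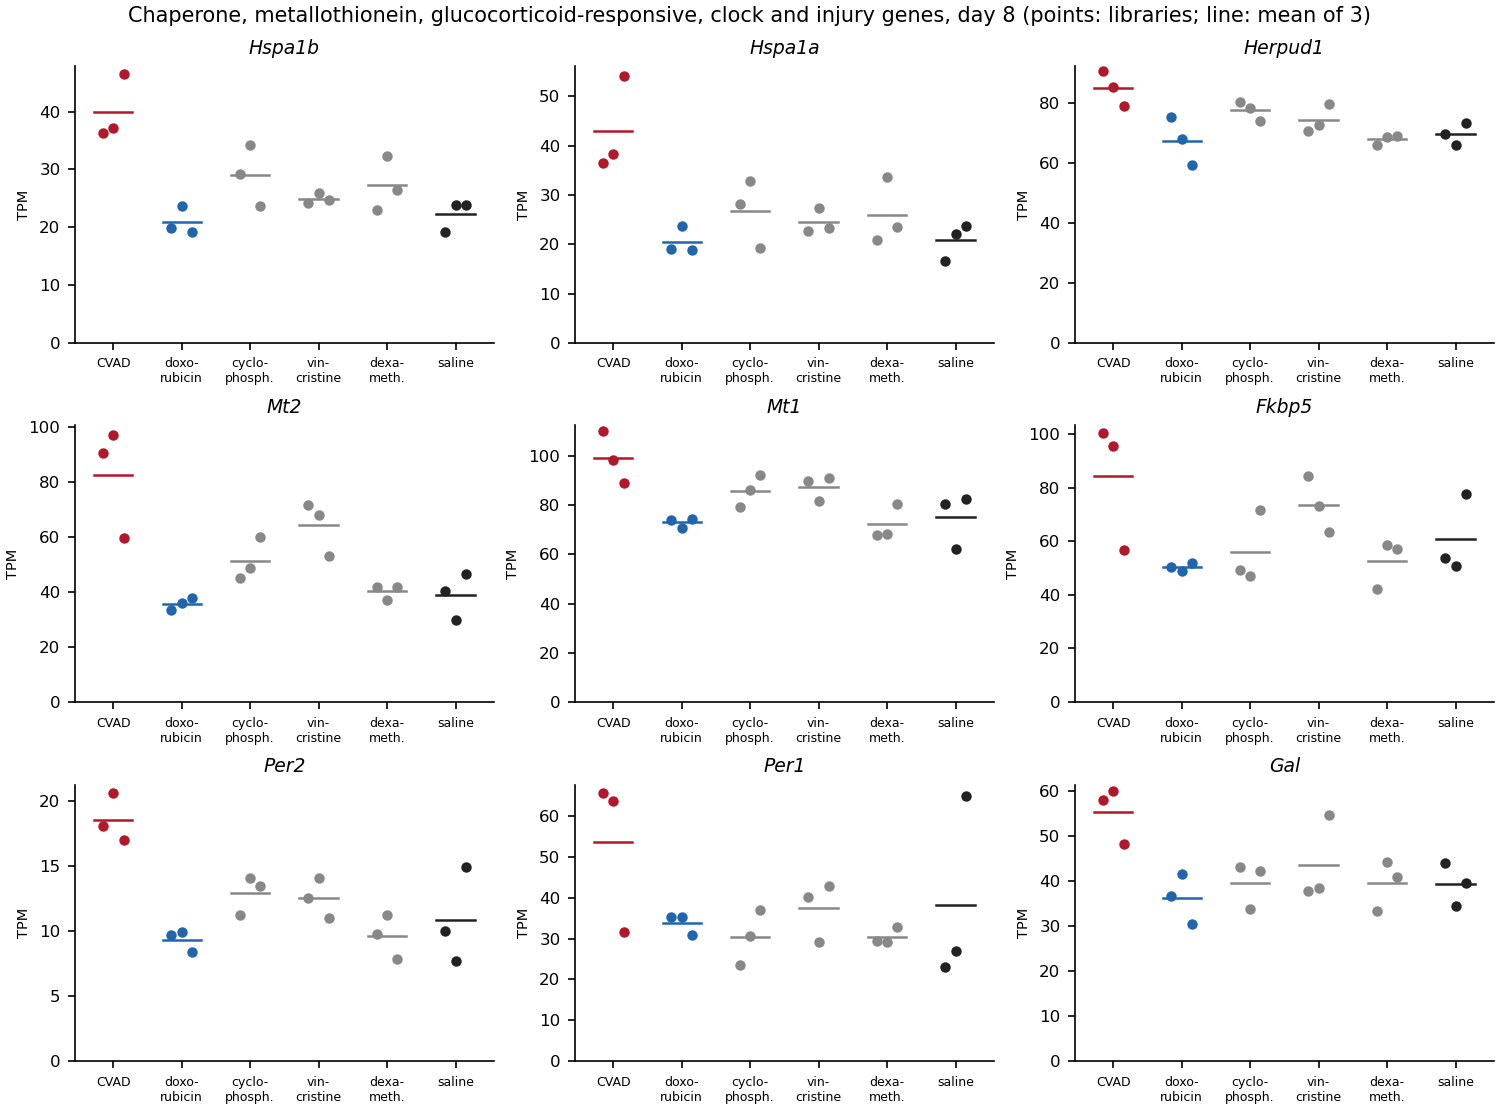
TPM of 9 stress, glucocorticoid, clock and neuropeptide genes (1 panel each, y axis in TPM) in the day 8 libraries (points) by treatment (x axis), with a line at the mean of 3. For Hspa1b, Hspa1a, Mt2 and Per2 the 3 CVAD points lie above all doxorubicin points, while for Fkbp5 and Per1 the third CVAD library lies near them (56.8 and 31.7 TPM).

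Neuronal genes differed little between the groups, with intervals that leave small differences possible. Of 15 tubulin genes, the protein family that vincristine binds, 6 were higher and 9 lower, 0 had an unadjusted p under 0.05 and the median was −0.02. The number of higher tubulin genes ran from 2 (without CVAD replicate 2 or doxorubicin replicate 3) to 13 (without doxorubicin replicate 2). Tubb3, the neuronal beta tubulin, was at 330 ± 35.7 TPM against 322 ± 23.3 (log2 difference 0.03, 95% interval −0.20 to 0.27), and its sign turned to −0.01 after median-ratio scaling. Of 20 nociceptor genes 15 were higher (59.6% of all genes), 0 had an unadjusted p under 0.05 and all lay between −0.09 and 0.16 on the log2 scale. The count of higher nociceptor genes was 3 without doxorubicin replicate 3, 9 without CVAD replicate 2 and 12 after median-ratio scaling. Calca, which encodes the peptide CGRP, was at 265 ± 32.2 TPM against 254 ± 23.2 (95% interval −0.19 to 0.30). Trpv1, the capsaicin receptor, was at 86.2 ± 12.2 TPM against 90.7 ± 14.9 (95% interval −0.33 to 0.20). The medians were 0.04 for 27 ion channel genes and 15 genes of large-diameter neurons, and 0.03 for 21 genes of axonal transport, 7 neurofilament genes and 17 genes of axon degeneration. All of these medians lay within 0.1 of the median of all genes.

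Of the 25 genes linked to axon injury and regeneration 19 were tested and 18 were higher (59.6% of all genes), with a median of 0.14. Without CVAD replicate 2, 13 were higher. The number with an unadjusted p under 0.05 was 1 of 19 (3.18% of all genes), or 5 without CVAD replicate 1 and 3 without doxorubicin replicate 3. With all libraries this gene was Gal, the neuropeptide galanin that injured sensory neurons make, at 58.1, 60.0 and 48.2 TPM with CVAD, 36.8, 41.6 and 30.6 with doxorubicin and 44.1, 34.6 and 39.7 with saline. Its groups did not overlap (log2 difference 0.60 ± 0.17, limma adjusted p = 0.658), which held for 1 of the 19 genes (5.83% of all genes). Atf3, a transcription factor of injured neurons, was at 11.5, 32.6 and 24.4 TPM against 10.9, 10.7 and 22.6, and its groups overlapped (95% interval −0.12 to 1.25). CVAD replicate 1 was near the lowest doxorubicin values of Atf3 although it was among the highest for Gal. Sprr1a, Vip, Il24, Anxa10, Ankrd1 and Crh were not tested, since they were at 0 or below the filter.

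Glial, vascular and resident immune genes had medians near that of all genes. These were 0.05 for satellite glia (16 genes), 0.06 for myelinating Schwann cells (16), 0.01 for repair Schwann cells (11), 0.03 for endothelium (18) and for pericytes and smooth muscle (13), and 0.12 for collagens and fibroblasts (23). Sox2, a transcription factor of satellite glia and repair Schwann cells, was at 22.8, 21.4 and 22.001 TPM against 29.6, 29.3 and 23.3 (log2 difference −0.29 ± 0.09, limma adjusted p = 0.851). It overlaps Sox2ot on the same strand, so reads of these genes may not be told apart. Of 20 macrophage genes 14 were higher (59.6% of all genes), with a median of 0.06. Without CVAD replicate 1, 9 were higher and the median was −0.02. An unadjusted p under 0.05 was found for 1 of the 20 (3.18% of all genes). This was Lyve1, a hyaluronan receptor of perivascular macrophages and lymphatic vessels, at 14.4, 15.7 and 16.1 TPM against 8.51, 8.11 and 9.91 (log2 difference 0.74 ± 0.20, limma adjusted p = 0.579). Cd163, a scavenger receptor, was at 24.8, 16.02 and 11.2 TPM against 10.6, 10.3 and 10.1. Both macrophage genes had all CVAD values above the doxorubicin values, which held for 3 of the 20 genes (5.83% of all genes). Genes of interferon responses and MHC class I were split at 12 higher and 12 lower with a median of −0.01, those of MHC class II had a median of 0.03, and cytokines and chemokines one of 0.03. The antioxidant (NRF2), drug transport, cholesterol, respiratory chain and ribosomal protein lists had medians of 0.06, 0.04, −0.06, 0.01 and −0.02. Abcb1a, the efflux pump that carries doxorubicin and vincristine, was at 37.2 ± 2.22 TPM against 34.5 ± 3.13 (95% interval of the log2 difference −0.20 to 0.41).

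**Figure D5:**
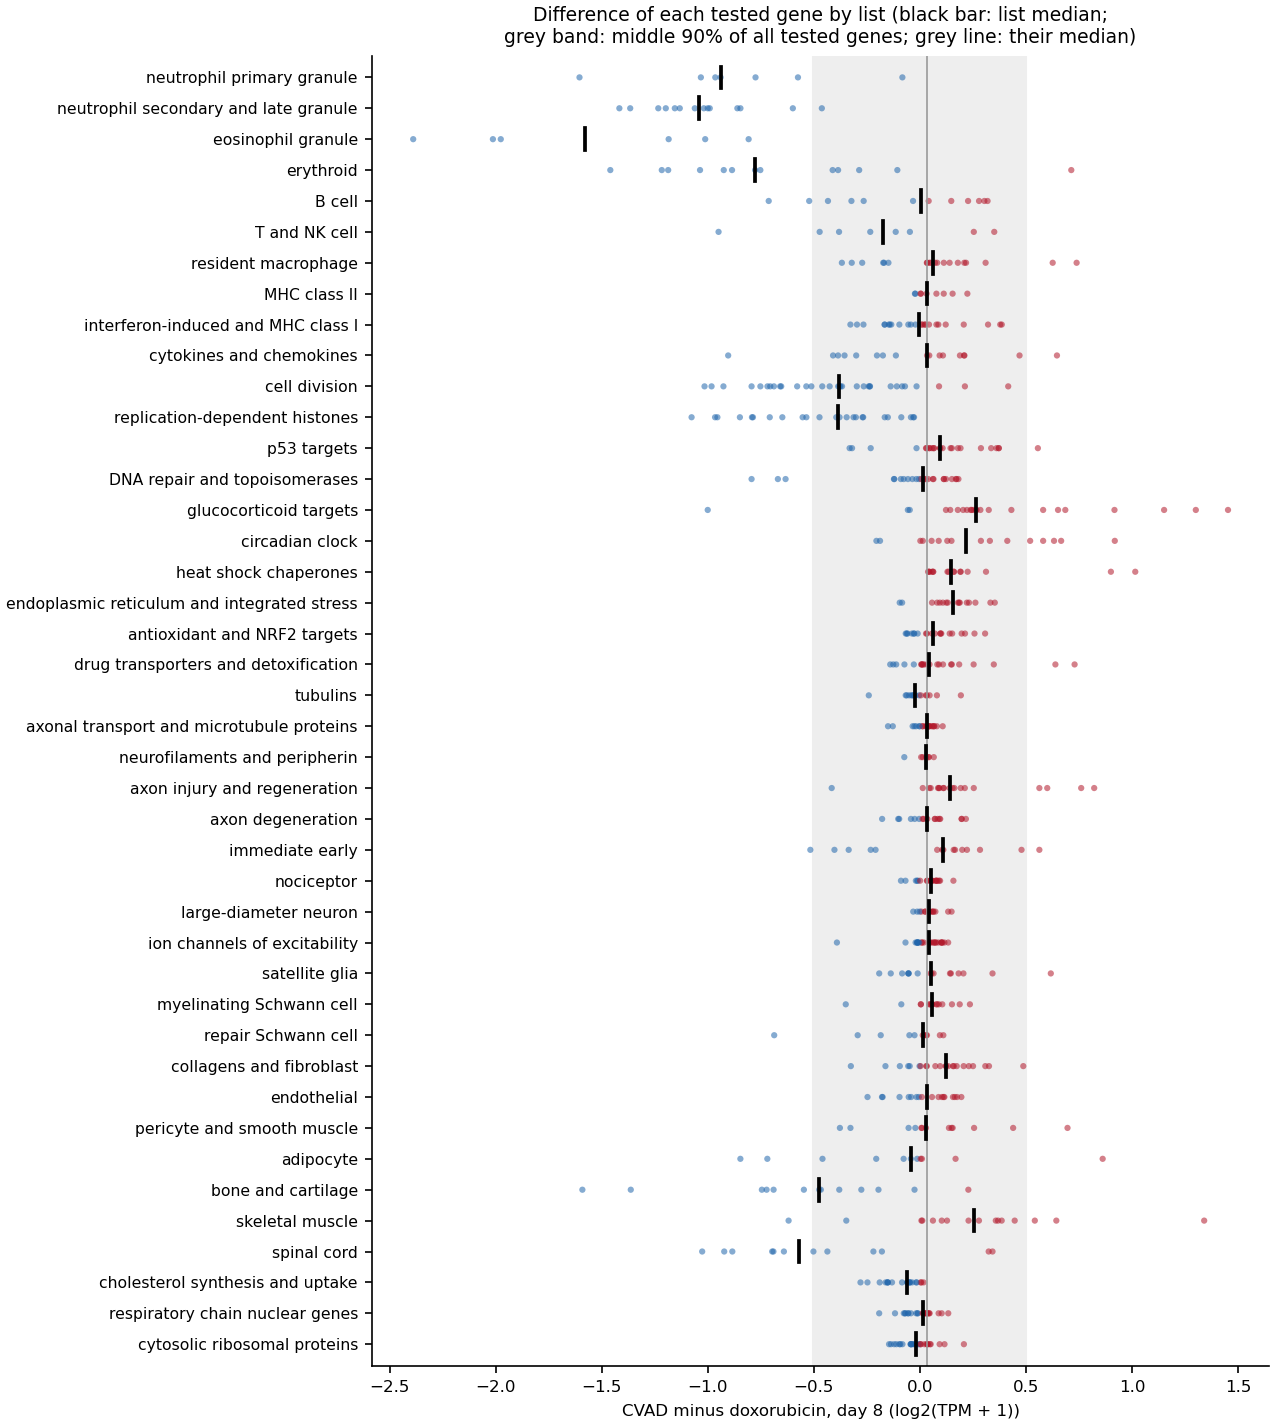
Log2(TPM + 1) differences CVAD minus doxorubicin (x axis) of each tested gene (points) in 42 lists (rows), with a bar at each list's median, and a grey band and line for the middle 90% and the median of all tested genes. The 3 granulocyte lists have medians of −0.94, −1.04 and −1.58, while the neuronal and glial lists lie near 0.

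Some of the leading coding genes are in none of the lists. Olfr1033, the coding gene of smallest p and a gene annotated as an olfactory receptor (chromosome 2, 85850977 to 85875515 in the deposited table), was at 40.9, 34.6 and 48.8 TPM with CVAD, 15.5, 11.9 and 14.8 with doxorubicin and 20.3, 22.9 and 30.5 with saline. CVAD was above saline and doxorubicin below it without any overlap. The log2 difference was 1.49 ± 0.27 (SE, limma adjusted p = 0.164), and with library quality weights it passed at 1.54 (limma adjusted p = 0.0324). Over all alternatives the adjusted p ran up to 0.625. Wnt2b, a Wnt ligand, was at 32.8, 31.1 and 35.2 TPM against 24.8, 25.3 and 22.6, and Edrf1, linked to erythroid differentiation, at 27.05, 24.6 and 24.8 against 17.4, 19.8 and 17.2. Noxred1 was at 5.74, 4.93 and 6.72 TPM against 2.88, 1.66 and 3.29. On the lower side, Tpd52l1 was at 5.54, 8.30 and 6.56 TPM against 13.5, 13.5 and 11.955, with 7.31, 7.63 and 11.8 in saline. Here doxorubicin was the group that stood above both others, though only narrowly above the highest saline library. Tpd52l1 overlaps the pseudogene Supt4b on the same strand (means of 9.52 and 6.66 TPM), so reads of these may not be told apart. Zfp663, a zinc finger gene, was at 1.16, 3.11 and 1.31 TPM against 6.03, 4.21 and 3.97. A second Aldoa entry (ENSMUSG00000114515) was at 2.80, 1.10 and 3.62 TPM against 9.39, 8.42 and 6.12. It overlaps Tlcd3b on the opposite strand and shares its symbol with the abundant aldolase entry, which was at 318, 341 and 244 TPM against 303, 310 and 264.

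Set against saline on day 8, the granulocyte genes were lower in both groups and further from saline with CVAD. The stress and clock genes were near day 8 saline with doxorubicin by their medians. The median log2 difference from saline of the late granule list was −1.39 with CVAD and −0.46 with doxorubicin, that of the primary granule list −1.84 and −0.79, and that of the histones −0.87 and −0.38. For the chaperones the values were 0.12 and −0.06, for the glucocorticoid targets 0.22 and −0.07 and for the clock genes 0.24 and −0.02. The clock genes summed to 413 to 684 TPM in saline on day 8. That range held the CVAD range (593 to 640) and the doxorubicin range (457 to 525). The median differences of CVAD and of doxorubicin from saline use the same saline libraries and are given side by side only. Over all genes the medians were 0.02 and −0.02. Saline libraries differed between days. Late granule genes summed to 349 to 507 TPM in saline on day 8 and 166 to 264 on day 2. Primary granule genes summed to 66.2 to 123 and 33.0 to 53.9, and eosinophil genes to 41.7 to 97.0 and 13.8 to 34.7. For histones the sums were 758 to 1204 and 510 to 734. Day 8 CVAD overlapped day 2 saline for primary granule, eosinophil and histone sums. It lay just below for late granule genes (108 to 165). The cause was not tested.

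Whether doxorubicin stood apart from the other single drugs was tested by a contrast that uses no CVAD or saline mean, in the same model of all 30 libraries. Against the mean of cyclophosphamide, vincristine and dexamethasone, limma called 0 genes higher and 0 lower with doxorubicin (0%), while 398 genes had an unadjusted p under 0.05 and were higher (1.56%) and 286 were lower (1.12%). With the libraries of those 4 groups alone the numbers were 416 and 277. Other settings called at most 3 genes in a direction. Hspa1b was lower with doxorubicin by a log2 difference of −0.35 ± 0.15, Mt2 by −0.49 ± 0.21 and Olfr1033 by −0.70 ± 0.22, each with a limma adjusted p of 1. These 3 genes were named for their small p in the contrast of CVAD with the same doxorubicin libraries, which favours low doxorubicin values, so these differences are a description and no independent support. Ngp and Cd177 had differences of 0.04 ± 0.23 and 0.12 ± 0.29, and the medians of the primary and late granule lists were −0.02 and 0.09. Ngp and Cd177 were named in the same way, which for them favours high doxorubicin values. Late granule genes summed to 191 to 309 TPM with cyclophosphamide, 163 to 412 with vincristine and 328 to 400 with dexamethasone, and the CVAD range of 108 to 165 overlapped that of vincristine alone among these groups.

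Libraries of the comparison resembled each other within and between groups: Pearson's r over all tested genes was 0.970 to 0.971 within CVAD, 0.964 to 0.969 within doxorubicin and 0.964 to 0.969 between them. Protein-coding genes took 63.4 to 71.2% of the TPM with CVAD and 61.0 to 71.2% with doxorubicin. Doxorubicin replicate 3 stood apart in spinal cord genes, whose sum was 191 TPM there and 17.4 to 50.7 in the other 5 libraries. This library also had the lowest protein-coding share (61.0%) and the lowest library quality weight (0.50) of the compared libraries. Its inhibitory neuron genes Slc6a5 and Slc32a1 were at 9.75 and 8.70 TPM. Skeletal muscle genes summed to 301 to 805 TPM with CVAD and 175 to 1100 with doxorubicin. With the muscle and spinal cord levels as covariates the median of the late granule list was −1.04, that of the primary granule list −0.92 and that of the eosinophil list −1.54. The log2 differences were then 0.90 for Hspa1b, 1.27 for Mt2 and 0.96 for Per2, with limma adjusted p-values of 0.210 to 0.227.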

How the data were processed

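The deposited table gives TPM, transcripts scaled to a sum of 1e+06 per library, for each gene in 30 libraries, as the authors made it. Tools listed in the submitters' processing notes are StringTie 2.2.1, STAR 2.7.10b and FastQC 0.12.1. Those notes also list GRCm39 and mm10 with no role for either. Of 52068 table genes that a GRCm38 annotation also holds, 1472 have the same start and end, so table coordinates and the RefSeq promoters (GRCm38.p6) were never combined. TPM keeps no read counts: the depth is unknown and no counting error was computed. RNA input was 60 to 80 ng, per the labels' protocols. Of 56686 genes 19144 are at 0 in every library.

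Samples were grouped by their treatment labels. Values were analysed as log2(TPM + 1), which understates differences of low genes, for the 25434 genes (15314 protein-coding) that reached 1 TPM in 3 libraries or more. In limma 3.58.1 (R 4.3.3) 1 model with a mean per group and a variance trend was fitted to all 30 libraries, with 20 residual degrees of freedom and 2-sided p-values adjusted by the Benjamini-Hochberg method over all genes tested. The script was checked on simulated data. Figures were drawn with matplotlib 3.10.9.

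The comparison and the 42 gene lists (746 genes, 700 tested, 23 at 0 in every library, 23 below the filter) were chosen with earlier results of these data known. By rule the text could name, where fewer than 5 genes were called, the 8 coding genes of smallest p in each direction whose groups did not overlap, in each list the 2 members with the smallest p, and Top2a, Top2b, Cdkn1a, Mki67, Fkbp5, Tsc22d3, Per1, Atf3, Tubb3, Calca, Trpv1 and Abcb1a. Some results under this rule are not reported here. Other members were named after their values were seen. List members were also searched in the promoter table by symbol. Alternatives were a pseudocount of 0.1, no filter, a mean TPM of at least 1, median-ratio scaling, day 8 libraries or the compared libraries alone, library quality weights, protein-coding genes alone, muscle and spinal cord covariates, and leaving out each compared library.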

Additional observations from a re-analysis of the deposited data

How the results depend on the processing

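The main settings called 0 genes in each direction. With CVAD against doxorubicin, the number called higher was 1 with a pseudocount of 0.1 (Mir8095), 1 without a filter, 2 with the compared libraries alone, 2 with quality weights (Olfr1033 at 1.54 and Mir8095), and 0 to 2 with 1 library left out. The number called lower was 1 without a filter and 2 with the compared libraries alone, and 0 with any 1 library left out. With doxorubicin against the other single drugs, the number called higher was 1 without a filter, 1 with the compared libraries alone, 2 with quality weights and 0 to 1 with 1 library left out. The number called lower was 1 with a pseudocount of 0.1, 1 with the compared libraries alone, 3 with quality weights and 0 to 1 with 1 library left out. The cause was not tested.

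Of 1542 values of 103 named genes under alternatives, 1525 kept their direction and side of the threshold. Median-ratio scaling turned Tubb3 to −0.011 and Top2b to −0.021, and covariates turned Tubb3 to −0.0067. Further signs turned with 1 library left out, over which the log2 differences ran as follows. Without CVAD replicate 2 at the low end, H2-Eb1 ran from −0.042 to 0.43, Nefm from −0.029 to 0.18, Calca from −0.033 to 0.14 and Tubb3 from −0.036 to 0.12, and Top2b was also below 0. Without doxorubicin replicate 3 at the low end, Calcb ran from −0.022 to 0.16 and Top2b from −0.025 to 0.060, and Calca and Tubb3 were also below 0. Trpv1 ran from −0.21 to 0.053 and was above 0 without CVAD replicate 3 or doxorubicin replicate 1. The muscle genes ran from −1.40 to 0.50 (Myh1, above 0 without doxorubicin replicate 3) and from −0.57 to 2.60 (Tnnt3, below 0 without doxorubicin replicate 1).

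Of 630 list medians 624 moved by less than the replicate spread, a measure that does not ask whether the sign held. Several medians near 0 changed sign with 1 library left out. Examples are B cells (−0.26 to 0.27), MHC class II (−0.11 to 0.37), adipocytes (−0.32 to 0.11), satellite glia (−0.035 to 0.11) and myelinating Schwann cells (−0.034 to 0.20). The eosinophil median was −2.42 with a pseudocount of 0.1, −1.98 with the mean filter and −1.20 without CVAD replicate 3. The erythroid median was −1.26 with a pseudocount of 0.1. The p53 median was 0.16 without doxorubicin replicate 1 and 0.026 without doxorubicin replicate 3. No paired analysis was possible because the labels give no replicate numbers. With 3 libraries a group, unknown depth and zeros that may be failed estimates, small differences and low genes are the least secure.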

Other observations

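Adipocyte and skeletal muscle genes varied between single libraries. Of 11 adipocyte genes 4 were higher and 7 lower with CVAD, with a median log2 difference of −0.04. Plin4 and Plin1, both perilipins of lipid droplets, had differences of 0.86 ± 0.39 and −0.85 ± 0.45. Of 16 muscle genes 14 were higher (59.6% of all genes), with a median of 0.25 that ran from −0.56 to 1.01 when 1 library was omitted. Of these genes 0 were higher without doxorubicin replicate 1 and 6 without CVAD replicate 1. Spinal cord genes had a median of −0.57, with 10 of 12 lower, which ran from −0.95 to 0.08 when 1 library was omitted. Immediate early genes, which neuronal activity and handling induce, were split at 10 higher and 5 lower with a median of 0.11.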
